A study of Arabidopsis thaliana with 4 samples.

Results

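Sites of the chromosome arms that lay inside protein-coding genes and were recovered with both probe sets against the long noncoding RNA APOLO are described here. A site was a peak of the first ODD library (ODD 1) that overlapped a peak of the EVEN library (EVEN 1) by at least 1 bp and overlapped no peak of the LACZ control library (LACZ 1). Its summit lay inside the body of a protein-coding gene and more than 3 Mb from the chromosome centre, taken at 15.05, 4.5, 13.0, 4.1 and 11.95 Mb on chromosomes 1 to 5. The rule gave 1835 sites, which are 11.4% of the 16126 nuclear ODD 1 peaks, out of 107288 nuclear peaks in all 4 lists together. They lay in 1752 genes, 7.22% of the 24265 coding genes of the arms. The sites were thus chosen by the peak calls of ODD 1, EVEN 1 and LACZ 1, and values from these 3 lists are a description of the sites. The second ODD library (ODD 2) was not used to choose them. With ODD 2 in place of ODD 1 the rule gave 6013 sites in 5394 genes, and with a −log10 q of at least 5 it gave 417 sites in 416 genes.

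The assay was ChIRP-seq, in which biotinylated oligonucleotides complementary to an RNA pull down the crosslinked chromatin around it for sequencing. ODD and EVEN are separate sets of probes against APOLO, with 2 libraries and 1 library, and the LACZ probes, with 1 library, are the control. All 4 libraries came from Arabidopsis thaliana of the Col-0 ecotype that carried the full APOLO region under the constitutive 35S promoter, so APOLO was overexpressed in the control library too. They were grown on solid medium in long days. The labels give neither the age nor the tissue nor the number of transgenic lines. Nor do they say whether the ODD libraries came from separate plants.

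APOLO is transcribed next to PID, a kinase gene of auxin transport, and is known from Arabidopsis roots as an auxin-responsive RNA. It can pair with DNA in R-loops, in which an RNA strand displaces one strand of the double helix, and it affects chromatin looping and Polycomb marks at its neighbour and at distant genes. Gene bodies are transcribed sequence, in which R-loops also form with nascent RNA.

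Each peak carries a fold enrichment, the authors' ratio of the pileup at the summit to the local background of that library. The values fit this ratio with 1 added to both the pileup and the background. Folds of different libraries are given side by side and not compared, because library depth is unknown. The lowest local background behind any called peak was 1.11 fragments in ODD 1, 2.81 in EVEN 1, 6.55 in ODD 2 and 6.23 in LACZ 1. The lists held 16126, 20470, 58146 and 12546 nuclear peaks in the same order, and the narrowest peaks were 47, 54, 94 and 200 bp wide. With 1 EVEN and 1 LACZ library no spread between replicates could be measured, and the intervals given for shares (exact Clopper-Pearson, 95%) cover counting error only.

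The sites were short stretches of moderate enrichment. Their ODD 1 fold had a median of 5.66, with a middle 50% of sites between 4.47 and 7.43 and a full range of 2.79 to 21.2. The EVEN 1 fold of the overlapping peak had a median of 3.64 and a range of 2.36 to 14.1. The ODD 2 fold, where a peak was present, had a median of 7.50 and a range of 2.18 to 17.8. The median site was 140 bp wide, narrower than the median of 354 bp of the ODD 2 peaks over the same places. Only 12 sites were wider than 500 bp.

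Since a site had to overlap an EVEN 1 peak, its summit lies near an EVEN 1 summit by choice, and the distances describe only how near. The nearest EVEN 1 summit lay a median of 40 bp from the ODD 1 summit, and it was within 50 bp at 59.4% of the sites. In 1824 sites, or 99.4%, an EVEN 1 summit fell inside the same gene. The nearest ODD 2 summit lay a median of 39 bp away. Across the 1800 sites found in both ODD libraries, the ODD 1 and ODD 2 folds had a Spearman correlation of 0.67. Between ODD 1 and EVEN 1 it was 0.11 over the 1835 sites. These correlations run over sites, which share libraries and local background and are not independent.

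**Figure D1:**
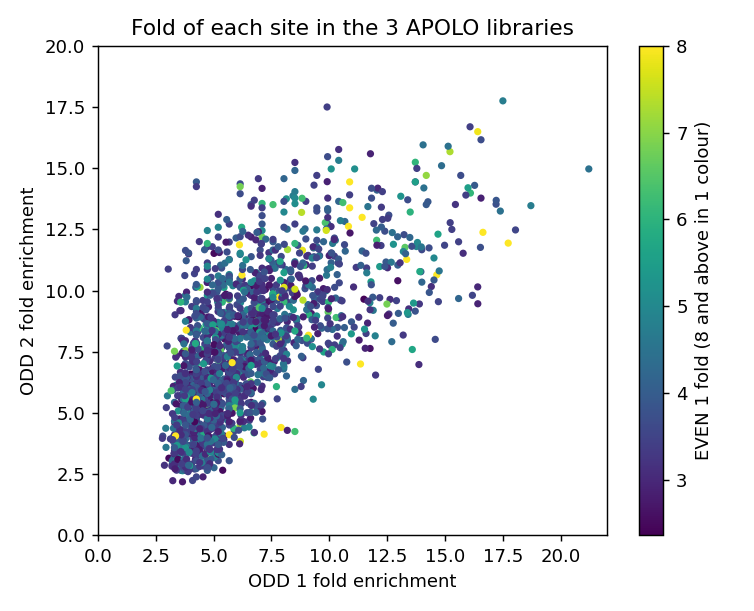
Fold enrichment of the 1800 sites found in ODD 2. Each point is a site, with its ODD 1 fold on the horizontal axis, its ODD 2 fold on the vertical axis and its EVEN 1 fold as colour. The cloud rises along the diagonal, with a Spearman correlation of 0.67 between the ODD libraries, while EVEN 1 folds of all sizes are spread through it.

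The site with the highest ODD 1 fold lay in AT4G39190 (chromosome 4, 18252102 to 18252444), with a fold of 21.2 in ODD 1, beside 4.46 in EVEN 1 and 15.0 in ODD 2. BGLU16, named as a beta-glucosidase gene, followed (chromosome 3, 22211766 to 22212101), with folds of 18.7, 4.73 and 13.5 in the same order. Both were named after their values were seen. By the mean rank of ODD 1 and EVEN 1 fold, the first site was the APOLO locus itself, AT2G34655, which the gene table lists as protein-coding. Its site (chromosome 2, 14596650 to 14597580) was also the widest, at 931 bp, and its folds were 16.6 (ODD 1), 14.1 (EVEN 1) and 12.4 (ODD 2). Whether the probes bound the DNA of the APOLO locus there was not tested. Next in rank were AT1G56670, AT2G21560, AT1G71870 and ARI5, a ubiquitin ligase gene of the ARIADNE type, with EVEN 1 folds of 9.04, 7.88, 8.69 and 7.30. In these genes the summit stood 592, 593, 905 and 522 bp from the nearest gene end. The ranks after them went to KCS12, AT5G14540, AT1G20130, AT2G19080 and AT3G21690, with EVEN 1 folds from 6.04 in AT3G21690 to 8.10 in AT5G14540. None of these 10 genes had a LACZ 1 peak in its body.

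The library that played no part in the choice held nearly all sites. ODD 2 had a peak at 1800 of the 1835 sites (98.1%, 97.4 to 98.7), against 6902 of 7311 ODD 1 peaks of arm coding genes that touched no EVEN 1 peak and no LACZ 1 peak, called peaks with neither below (94.4%, 93.9 to 94.9). The share over all nuclear ODD 1 peaks was 94.8%. ODD 2 was the longest list, and 81.2% of all arm coding genes had an ODD 2 peak in the body. The difference of 3.69 percentage points gave an odds ratio of 3.05 (Fisher's exact test, two-sided, p = 6.22e-13, adjusted p = 9.95e-12 over 16 share comparisons). With a −log10 q of at least 5 the difference was 0.818 points and no longer passed (exact test, p = 0.122). Peaks are not replicates, so each p describes these libraries. Sites had higher ODD 1 folds than the peaks with neither, with medians of 5.66 and 4.72. The difference was therefore also taken within 4 classes of ODD 1 fold. Sites were also wider, with median widths of 140 and 98 bp, and a wider peak can more easily touch an ODD 2 peak. The classes were not matched on width, and its part in the difference was not tested.

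Within the fold classes the difference passed the test in the lower 2 of the 4. In the lowest class, up to a fold of 4.08, 92.7% of sites and 87.4% of peaks with neither were in ODD 2 (Fisher's exact test, adjusted p = 0.0314). In the next class the shares were 97.8% and 94.3% (exact test, adjusted p = 0.0305). They were 98.6% and 97.8% in the third class (exact test, adjusted p = 0.490), where no difference was detectable. In the highest class, above 6.22, all 719 sites and all 1494 peaks with neither were present. ODD 1 peaks of arm coding genes that EVEN 1 and LACZ 1 also held were in ODD 2 at 98.7% (exact test against the sites, adjusted p = 0.679), and the sites could not be told apart from these peaks of the control probes by presence in ODD 2. It was 98.0% for the 254 arm regions of the same kind outside coding genes (exact test, adjusted p = 1).

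The 35 sites without an ODD 2 peak were weak and narrow. Their ODD 1 folds ran from 3.19 to 5.48 with a median of 3.92, and their median width was 60 bp.

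The 10 sites of highest ODD 2 fold come from the library that the rule did not use. NTT, a zinc-finger transcription factor gene needed for the transmitting tract of the pistil, came first (chromosome 3, 21371150 to 21371373). Its fold was 17.8 in ODD 2, 17.5 in ODD 1 and 4.73 in EVEN 1, and the nearest LACZ 1 peak was 8734 bp away. GRP5, a glycine-rich protein gene (chromosome 3, 7140710 to 7141058), had 16.0, 14.0 and 4.46. Both EVEN 1 folds lay above the upper quartile of all sites, 4.26.

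MIF1, which encodes a mini zinc finger protein (chromosome 1, 28047776 to 28048004), had 15.8 in ODD 2, 10.4 in ODD 1 and 3.15 in EVEN 1. RAD52-1, a gene of the RAD52 type of DNA repair proteins (chromosome 1, 26879289 to 26879624), had 15.6, 11.8 and 2.90. ARI5 had an ODD 2 fold of 15.7. The other 5, namely AT1G79170, AT1G16500, AT2G21560, AT1G29418 and AT1G77960, carry no symbol in the gene table. Their ODD 2 folds were 17.5, 16.7, 16.5, 16.2 and 15.9. The gene body of AT1G79170 is 350 bp long, and its site spans 196 bp.

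Longer genes held sites more often, and shorter genes held more sites per length. Genes with a site had a median length of 2422 bp, against 2109 bp for all arm coding genes. In 4 equal classes of gene length the share of genes with a site was 4.71% (4.19 to 5.27) up to 1377 bp, 6.80% up to 2109 bp, 7.61% up to 3058 bp and 9.76% (9.03 to 10.5) above that. Per Mb of gene body the order was the opposite, with 54.4, 42.2, 32.2 and 23.0 sites. The longest gene of the arms, at 27265 bp, held 1 site.

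**Figure D2:**
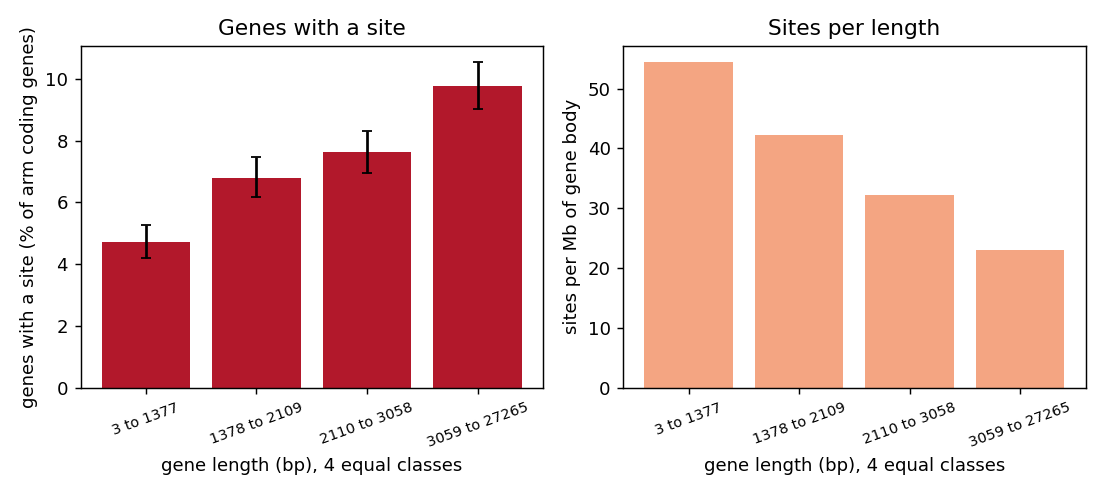
Arm coding genes in 4 equal classes of length. The left panel gives the percent of genes with a site with exact 95% intervals, and the right panel the number of sites per Mb of gene body. The share rises to 9.76% in the longest class while the number per Mb falls to 23.0.

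Most genes had a single site. Of the 1752 genes, 1649 (94.1%) had 1 site, 93 had 2, 8 had 3 and 2 had 4, so that genes with more than 1 made up 0.424% of all arm coding genes. The 103 genes with more than 1 site had 212 sites, and 55 of these genes carry no symbol in the gene table. Their neighbouring summits lay a median of 471 bp apart, with a middle 50% from 256 to 976 bp. Of the 115 neighbouring pairs, 31 shared a single EVEN 1 peak and 59 shared a single ODD 2 peak. Pairs and spacings were counted per gene, so a pair inside overlapping genes was counted for each of them, unlike the sites. In such pairs a single peak of the other library touched both ODD 1 peaks.

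The 2 genes with 4 sites are overlapping loci, AT1G26250 and AT1G26255, and they share the same 4 peaks. The 4 ODD 1 peaks of AT1G26250 (chromosome 1, 9084210 to 9085041 from the first to the last) had folds of 9.21, 5.22, 3.63 and 3.60. EVEN 1 covered the first 3 with 1 peak of fold 4.48 and the fourth with another of fold 4.50, and ODD 2 covered all 4 with 1 peak of 1174 bp and fold 8.04. LACZ 1 had no peak in the gene. The peak lists do not tell these loci apart.

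The genes with 3 sites were named after their values were seen. EPR1, an extensin-type gene for a proline-rich protein, had ODD 1 folds of 7.01, 9.53 and 9.66 (chromosome 2, 11713741 to 11715634), 5 EVEN 1 peaks and no LACZ 1 peak. ABI3, the B3 transcription factor gene of seed maturation and abscisic acid response, had folds of 4.26, 6.15 and 5.67 (chromosome 3, 8998571 to 8999467). Each ABI3 site had its own ODD 2 peak, with ODD 2 folds of 4.90, 11.5 and 7.66, and LACZ 1 had none in the gene. No EVEN 1 peak touched more than 1 ABI3 site, but 2 EVEN 1 peaks touched the second site. ABI3 thus differs from AT1G26250, where the ODD 2 list shows a single block.

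HSD2, a hydroxysteroid dehydrogenase gene, had ODD 1 folds of 9.97, 3.58 and 5.38 under 1 EVEN 1 peak of fold 6.03, and a LACZ 1 peak lay at its other end. G3Pp1, a glycerol-3-phosphate permease gene, had 4.05, 7.22 and 4.04, with no LACZ 1 peak in the gene. KOM, a rhomboid-like protease gene, had 3.63, 5.13 and 4.24, 1 of them without an ODD 2 peak. Its highest fold was the lowest among the genes with 3 sites, and its sites lay between LACZ 1 peaks, 138 bp from the nearer one. The genes without a symbol were AT3G19020, AT5G51510 and AT5G54630, with highest ODD 1 folds of 13.6, 7.34 and 6.29.

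**Figure D3:**
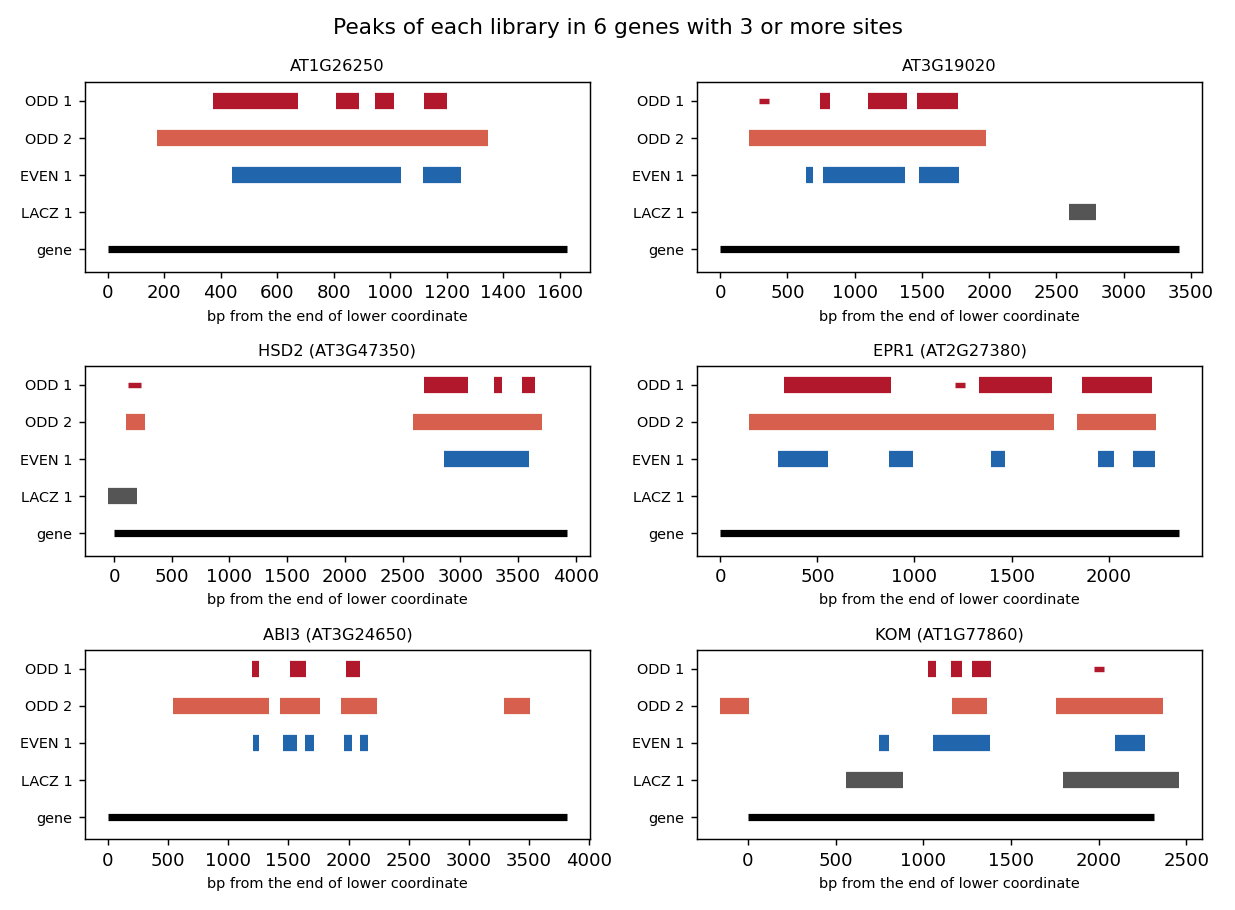
Peaks of each library in 6 of the genes with 3 or more sites, as distance in bp from the gene end of lower coordinate. Thick ODD 1 bars are sites, and thin ODD 1 bars are ODD 1 peaks that are not sites. In AT1G26250 a single ODD 2 peak spans the 4 sites, while in ABI3 no EVEN 1 or ODD 2 peak touches more than 1 site.

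Among genes with 2 sites, GSL8, a callose synthase gene of 15294 bp, had sites 11689 bp apart, the widest spacing of all. FAS1, of the chromatin assembly factor CAF-1, had sites 1311 bp apart. At SPCH, the transcription factor gene that starts the stomatal lineage, the spacing was 128 bp. A single EVEN 1 peak and a single ODD 2 peak touched both SPCH sites. The sites of GSL8 and those of FAS1 shared no peak of these lists. GSL8 had a LACZ 1 peak in its body, while FAS1 and SPCH had none. These genes were also chosen after their values were seen.

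Site summits were spread along the gene body, with fewer in its middle. Strand was not given in the gene table, so a place could not be called near the start or the end of transcription. Place was measured in the 1803 sites whose summit lay in 1 coding gene only, since 32 lay in 2 overlapping genes. With the body cut into 10 equal parts, counted from the end of lower coordinate, the share was highest in the second (13.1%) and the ninth (12.4%) and lowest in the fifth (6.93%) and the sixth (7.65%). Even placement would give 10% in each. The median summit lay 470 bp from the nearest gene end.

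**Figure D4:**
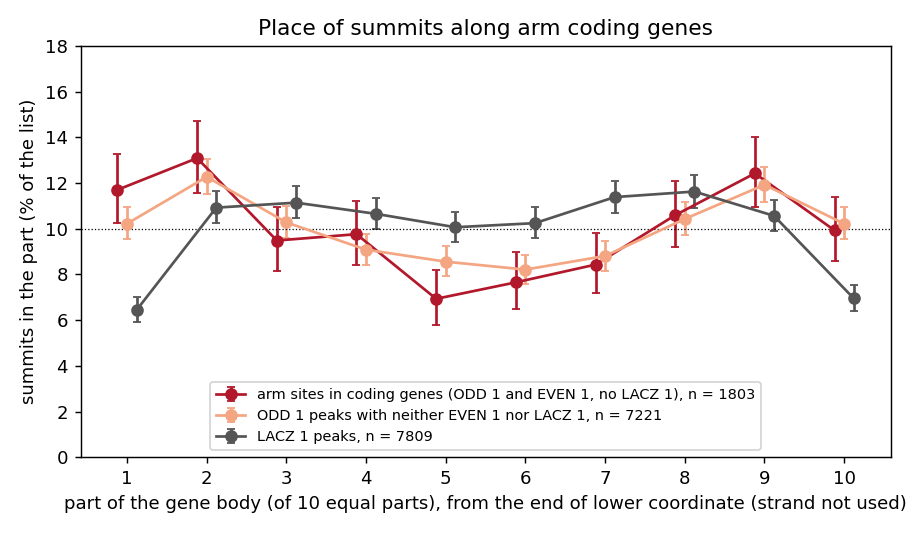
Percent of summits in each of 10 equal parts of the gene body, with exact 95% intervals, for the sites, for the ODD 1 peaks with neither, and for LACZ 1 peaks of arm coding genes. The dotted line marks even placement. The sites dip to 6.93% in the fifth part, while the LACZ 1 list is lowest in the first, at 6.44%.

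Set beside the other lists over all genes, the sites had the lowest share in the central part of the body. With the body cut into 3 equal parts, the central part held 26.6% of the sites (24.5 to 28.7) and 34.8% of 7809 LACZ 1 peaks in arm coding genes (33.7 to 35.8), a difference of -8.20 points. Within 250 bp of a gene end stood 20.9% of the sites and 13.6% of the LACZ 1 peaks. Because the rule removed ODD 1 peaks that touch a LACZ 1 peak, it bears on the place of the sites relative to this list, and these values are a description without a test. The median width was 140 bp for the sites and 268 bp for the LACZ 1 peaks of arm coding genes, and the part of peak width in this difference was not tested. ODD 1 peaks with neither had 28.4% in the central part and 19.6% near a gene end, and neither value differed detectably from that of the sites (Fisher's exact test, adjusted p = 0.214 and 0.356). ODD 1 peaks that EVEN 1 and LACZ 1 also held had 31.0% in the central part and 17.2% near a gene end. Again no difference from the sites was detectable (exact test, adjusted p = 0.147 and 0.192). The peaks with neither differ from the sites only by overlap with EVEN 1, and these peaks only by overlap with LACZ 1. The rule used both overlaps, so the tests describe that split and no conclusion is drawn from them.

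The comparison was repeated in the 4 classes of gene length, a split added after the values were seen. Here too the lists are set apart by overlap with EVEN 1 or LACZ 1, which the rule used. The tests in these classes therefore describe where such overlap lay along the genes, and are no independent support for a trait of the sites. In the longest genes, above 3058 bp, 18.6% of the sites (15.6 to 21.9) lay in the central part, against 24.4% of the ODD 1 peaks with neither (Fisher's exact test, adjusted p = 0.0138). In the class below, the shares were 24.8% and 30.9% (exact test, adjusted p = 0.0314). In the longest genes the median summit was 599 bp from a gene end for the sites and 838 bp for peaks with neither. The median gene length there was 3875 and 4198 bp in the same order, and its part in these distances was not tested. In the shorter classes the sign was the opposite and no difference was detectable, with 37.0% of the sites and 30.5% of peaks with neither up to 1377 bp (exact test, adjusted p = 0.147) and 33.3% and 32.5% up to 2109 bp (exact test, adjusted p = 0.879). ODD 1 peaks that EVEN 1 and LACZ 1 also held had 14.5% in the central part of the longest genes, which did not differ detectably from the sites (exact test, adjusted p = 0.490). The LACZ 1 peaks, again without a test, had 42.2, 36.9, 35.7 and 30.8% in the central part from the shortest to the longest class.

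LACZ 1 peaks elsewhere in the gene are described here without a test, since the rule removed sites that touch one. The median distance from a site to the nearest LACZ 1 peak was 2972 bp, and at 263 sites (14.3%) it was within 500 bp. Of the 1752 genes, 551 (31.4%, 29.3 to 33.7) had a LACZ 1 peak somewhere in the body, against 29.2% of all arm coding genes, and 1201 had none. With a −log10 q of at least 5 the share in genes with a site was 12.7%. By class of gene length, from short to long, the shares were 13.6, 24.0, 29.9 and 46.5% for genes with a site and 16.5, 26.6, 31.2 and 42.4% for all arm coding genes. Genes with a site were above all arm coding genes in the longest class and below them in the other 3. In every class, however, the exact interval of the genes with a site held the share of all arm coding genes. It ran from 9.88 to 18.2% in the shortest class and from 42.4 to 50.6% in the longest, so these signs are no result about the genes. Among the 103 genes with more than 1 site, 36 had a LACZ 1 peak. A further EVEN 1 peak that touched no site was present in 714 of the 1752 genes (40.8%), near the 41.8% of all arm coding genes that had any EVEN 1 peak.

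Families were described by symbol, as the count of arm genes with a site beside the 7.22% of all arm coding genes. No test was made over these lists, and a share near 7.22% is no result about a family. A family holds only genes with a symbol, which 53.3% of genes with a site and 60.8% of all arm coding genes lack. Genes with a symbol thus held sites more often than all genes, and 7.22% is a low reference. Shares were also not adjusted for gene length, which differs between families. The highest share was in the expansin and extensin genes, which encode proteins that loosen or build the cell wall, here with the PERK receptor kinases of extensin-like outer domain. Of 54 such genes, 11 had a site (20.4%, 10.6 to 33.5), while 31.5% had a LACZ 1 peak in the body, close to the 29.2% of all genes. The PERK10 site (chromosome 1, 9042174 to 9042560) had 16.4 in ODD 1, 2.98 in EVEN 1 and 10.2 in ODD 2. EXT4 had 8.63, 3.41 and 8.56, with a LACZ 1 peak 30 bp from the site. The others were PERK1, PERK7, PERK8, PERK9, PERK14, EXT6, EXT10, EXT12 and EXPA15, with ODD 1 folds of 5.31, 5.75, 7.91, 5.46, 4.47, 5.88, 4.86, 8.15 and 6.98. Their ODD 1 folds were all below that of PERK10.

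Among transcription factors, sites were found in 10 of 64 WRKY genes (15.6%, 7.76 to 26.9), of which 23.4% had a LACZ 1 peak. The WRKY21 site (chromosome 2, 13035255 to 13035452) had 10.2 in ODD 1, 3.43 in EVEN 1 and 11.4 in ODD 2, and the WRKY47 site (chromosome 4, 747740 to 747994) had 9.87, 4.20 and 12.5. Of the 54 AP2/ERF genes, 9 had a site (16.7%, 7.92 to 29.3), and 46.3% had a LACZ 1 peak. DREB2C, a factor of heat and drought response, had ODD 1 and ODD 2 folds of 11.3 and 7.98, and ERF104, of the ethylene response factors, had an ODD 1 fold of 9.75. Both families lay above the 7.22%, which is a low reference for genes with a symbol. The lower limits of their intervals, 7.76 and 7.92%, stood close to it. The AP2/ERF genes also lay above the 29.2% for control peaks.

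Other factor families had shares closer to that of all genes or below it. Homeodomain genes had 8 of 76 (10.5%), among them HB27 with an ODD 1 fold of 9.45 and HDG7 with 7.24, whose site of 600 bp also lies in the overlapping gene AT5G52180. MYB genes had 5 of 105 (4.76%), led by MYB95 with an ODD 1 fold of 13.7 and MYB26, a factor of anther opening, with 9.02. NAC genes had 4 of 80 (5%), with NAC082 at 6.24 and ANAC087 at 5.67. MADS-box genes had 4 of 78 (5.13%), with AGL18, a factor that delays flowering, at 14.7 and AGL96 at 4.81.

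Enzyme and transporter families ranged around the value of all genes. Cytochrome P450 genes had 10 of 206 (4.85%), although 43.2% of them had a LACZ 1 peak. The strongest P450 site was in CYP71A28, with folds of 8.04 in ODD 1 and 13.6 in ODD 2, before CYP94B1, a jasmonate-inactivating enzyme gene, with 6.45 and 6.08. UGT glycosyltransferase genes had 7 of 54 (13.0%), with UGT84A2, a sinapate glucosyltransferase gene, at 13.2 in ODD 1 and UGT88A1 at 6.13. The KCS genes of very long chain fatty acid synthesis had 3 of 19 (15.8%, 3.38 to 39.6), with KCS12 at 14.2 and KCS20 at 5.18. Of the KCS genes 47.4% had a LACZ 1 peak in the body, and such a peak lay 62 bp from the KCS20 site. ABC transporters had 9 of 112 (8.04%) with a site and 58.0% with a LACZ 1 peak. Their median length was 4609 bp, and among all arm coding genes above 3058 bp these shares were 9.76% and 42.4%. The strongest were ABCC1, a transporter of the vacuolar membrane, at 9.45 and ABCF4 at 7.41.

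Small families gave wide intervals. Aux/IAA and ARF genes of auxin signalling had 5 of 41 (12.2%, 4.08 to 26.2), with IAA2 at an ODD 1 fold of 10.9 and ETT at 4.69. Auxin carriers had 1 of 11, PIN7, with 3.34 in ODD 1 and 6.46 in ODD 2. The 15 genes with a SAUR symbol had 0, which by the exact interval allows a share of up to 21.8%. Kinesin and myosin genes had 3 of 22, with ATK2 at 5.98 and MYA2 at 4.65. Chromatin genes had 6 of 66 (9.09%), at a median length of 4678 bp, beside 9.76% of all arm coding genes above 3058 bp. Among them were CMT3, a plant DNA methyltransferase gene, at 7.09 and DML1, also known as the DNA demethylase gene ROS1, at 6.45. A LACZ 1 peak lay 178 bp from the DML1 site. CRK and CPK kinases had 3 of 56, with CRK8 at 7.67 and CRK18 at 6.50. The plant U-box ligases had 1 of 22, PUB13, with 4.42 in ODD 1 and 7.14 in EVEN 1. By family, 41.5% of Aux/IAA and ARF genes, 63.6% of auxin carriers, 13.3% of SAUR genes and 50% of chromatin genes had a LACZ 1 peak. The share was 40.9% for kinesins and myosins, 30.4% for CRK and CPK kinases and 45.5% for U-box ligases. Among the strongest 2 genes per family, WRKY21, HDG7, UGT84A2, ABCC1, EXT4, CRK8, KCS20, PIN7, ETT, MYA2, CMT3 and DML1 had a LACZ 1 peak. The others had none.

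**Figure D5:**
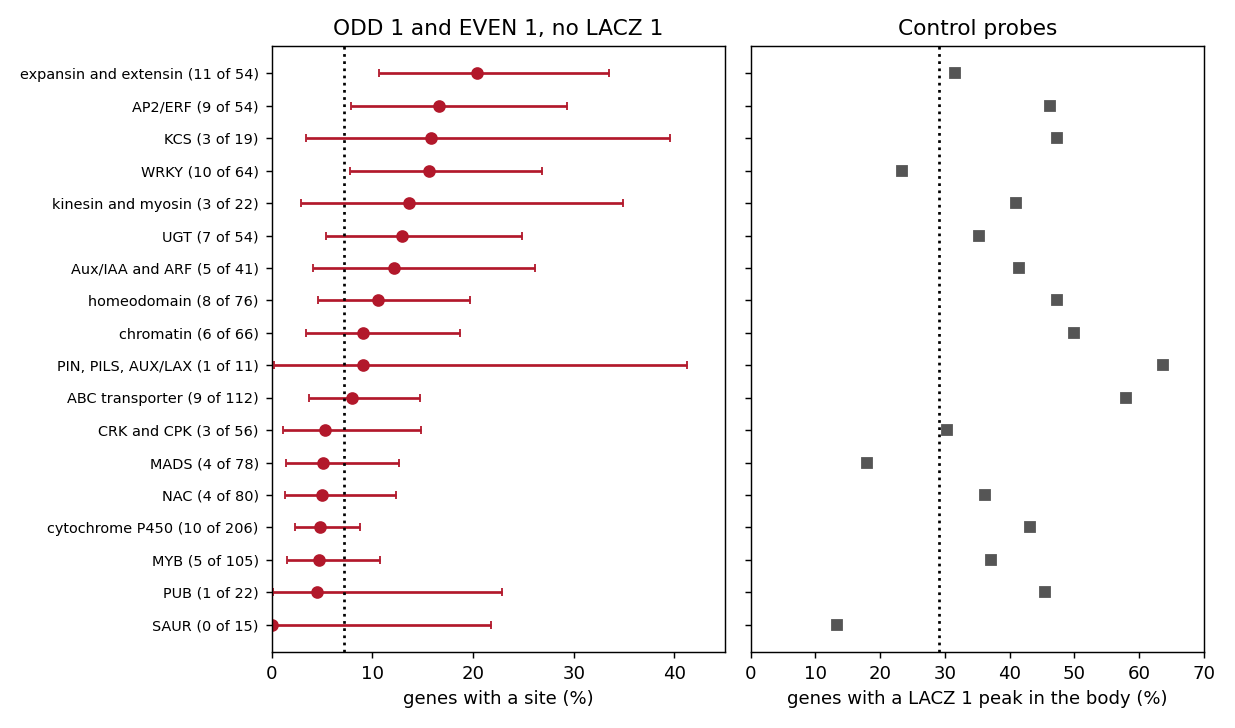
Percent of arm genes with a site in each of 18 families taken by symbol, with exact 95% intervals (left), and percent with a LACZ 1 peak in the gene body (right). Dotted lines mark all arm coding genes, at 7.22% and 29.2%. The expansin and extensin genes have the highest share of sites, 20.4%, and a share of control peaks near that of all genes.

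WAG2 and AZG2, which have been reported as targets of APOLO, were members. The WAG2 site, in a kinase gene related to PID, lay 86 bp from a gene end and had 4.73 in ODD 1, 3.41 in EVEN 1 and 10.3 in ODD 2. There the nearest LACZ 1 peak was 5857 bp away. The AZG2 site, in a purine and cytokinin transporter gene, lay 357 bp from a gene end with folds of 8.86, 4.60 and 12.4, and a LACZ 1 peak lay 100 bp from it. Both genes had 1 site. RHD6, a transcription factor gene of root hair formation, and WAG1, a close relative of WAG2, were members as well, with ODD 1 folds of 5.20 and 4.73, and were named after their values were seen.

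The widest sites after APOLO were not the strongest. The site of 676 bp shared by the overlapping genes AT4G22495 and AT4G22505 (chromosome 4, 11852166 to 11852841) reached 11.3 in ODD 1 and 9.98 in EVEN 1. In AT4G01985 the width was 658 bp with an ODD 1 fold of 9.30, and in AT2G25190 it was 587 bp with 13.6. The corresponding ODD 2 peaks were 1331, 1876 and 700 bp wide.

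The sites were spread over all arms. Genes with a site made up 6.72% of arm coding genes on chromosome 1, 7.73% on chromosome 2, 7.17% on chromosome 3, 7.06% on chromosome 4 and 7.60% on chromosome 5, with 455, 294, 380, 252 and 454 sites, and the intervals overlapped. With distance from the centre the share was 8.02% (7.38 to 8.69) at 3 to 6 Mb, 7.51% at 6 to 9 Mb, 6.83% at 9 to 12 Mb and 6.21% (5.54 to 6.94) beyond 12 Mb. The share of genes with a LACZ 1 peak was 31.3, 29.5, 27.9 and 27.4% in the same order, and its part in the values of the sites was not tested. Of 24260 pairs of neighbouring coding genes, 127 pairs both had a site. The next gene after a gene with a site thus also had a site in 7.25% of cases, beside the 7.22% of all arm coding genes. However, 26 of the 127 pairs shared a single site because the genes overlap. Without these, 101 pairs remained, or 5.76% of the same 1752 genes. The genes of the 26 pairs were still counted in that total, so this value is not set against the 7.22%.

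The limits of the rule passed through a continuous range of values. At 61 sites the overlap with EVEN 1 was 10 bp or less. The shortest overlaps, of 1 bp, included a site in IAA33 (ODD 1 fold 3.41), and 250 ODD 1 peaks with neither lay within 50 bp of an EVEN 1 peak without touching it, for example in COB, where the gap was 0 bp (ODD 1 fold 3.78). At 51 sites a LACZ 1 peak lay within 50 bp, the nearest directly beside the site in PUP4 (ODD 1 fold 7.57), while in AT1G31520 a peak of both probe sets was left out for an overlap of 1 bp with LACZ 1 (ODD 1 fold 6.15). The site nearest the centre was in AT4G02489, 3002402 bp away (ODD 1 fold 6.15), and GTL1, at 2997365 bp (ODD 1 fold 5.12), was left out.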

How the data were processed

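Each library had 1 deposited peak list on TAIR10, not pooled with others. CASAVA 1.8.2, Trimmomatic, Bowtie2 and MACS2 are named in the submitters' processing notes. No source used here gives the options of peak calling or its control. Per the file headers, the authors gave each peak its limits, summit, pileup signal and fold enrichment, a ratio over local background. They also deposited a p-value and a q-value per peak, each as −log10. Read totals were not used here.

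Sites were found with Python 3.11.15, pandas 2.3.3 and scipy 1.17.1. Genes, names and lengths came from a RefSeq table of TAIR10.1, which gives neither strand nor exons, so strand and sequence were not used here. The share of arm summits inside coding genes was highest at a shift of 0 bp in the ODD 1, EVEN 1 and LACZ 1 lists (83.8, 89.3 and 87.3%), with shifts up to 2000 bp in steps of 250 bp. Overlap, place and interval calculations were tested on simulated data. Shares were compared by Fisher's exact test, with Benjamini-Hochberg adjustment over 16 comparisons, 5 of them added after the values were seen. Place was also to be tested against LACZ 1 peaks, but these values are given without a test, because the rule removed sites that touch such peaks.

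The rule for named genes took genes with 4 or more sites, the 10 sites of highest ODD 2 fold, the 10 of best mean rank of ODD 1 and EVEN 1 fold, the 5 widest, the strongest 2 genes per family, sites at the limits of the rule, WAG2 and AZG2. The members, lists and tests were chosen with earlier results of these data known. The alternatives were a stricter q, a larger overlap, a wider distance from control peaks, other centre widths, ODD 2 in place of ODD 1 and, added later, classes of gene length.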

Additional observations from a re-analysis of the deposited data

How the results depend on the processing

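With −log10 q of at least 5 in all lists there were 417 sites in 416 genes, 96.6% of the genes had 1 site, 24.3% of summits lay in the central part of the body and 12.7% of the genes held a LACZ 1 peak. ODD 2 then held 99.8% of the sites, 0.818 points above peaks with neither, a difference that no longer passed (Fisher's exact test, p = 0.122). With an overlap of at least 50% of the shorter peak, 95.8% of genes had 1 site. With no LACZ 1 peak within 500 bp, 20.9% of genes held a LACZ 1 peak, as that setting removes such genes. Without ODD replicate 1, that is with ODD 2 in its place, there were 6013 sites in 5394 genes, 87.5% with 1 site, 28.7% of summits in the central part and 28.5% of genes with a LACZ 1 peak. No value for presence in ODD 2 exists there. The share in the central part minus that of LACZ 1 peaks, a description, was smallest in the 2 classes of shortest genes, at -5.17 and -3.52 points, and ran from -12.2 to -6.09 points in the other settings. The remaining values of the 51 run moved within 1.5 times (counts) or within the interval (shares). No paired analysis was possible because EVEN and LACZ have 1 library each and share only the number 1 with ODD. Depth is unknown, and the pileup at the summits of the sites was 6 to 82 fragments in ODD 1.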
